A study of Mus musculus with 6 samples.

Results

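Transcripts of 10 pluripotency and germ cell specification genes were examined in whole testes of mouse embryos at E12.5. The genes were Pou5f1, Sox2, Nanog, Dppa3, Dppa4, Dppa5a, Utf1, Tfap2c, Prdm1 and Prdm14. They were taken by symbol from a count table of 24470 genes, which held all 10, and all 10 passed the filter on low counts, as did 15577 genes in total. The study deleted Ppp1r3c, which encodes a glycogen-targeting subunit of protein phosphatase 1, and compared 3 control samples with 3 conditional knockout (cKO) samples. Control embryos were Ppp1r3c f/f, and cKO embryos were Sf1-Cre Ppp1r3c f/f, so that both groups carried floxed alleles and the cKO group also carried the Cre. The Cre transgene is driven by sequences of Nr5a1 (Sf1), which is active in somatic cells of the gonad, and the mice were kept on a C57BL/6 background. A sample was a pool of 2 gonad pairs, and an effect of the Cre itself cannot be told apart from that of the deletion.

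Germ cells arise outside the gonad as primordial germ cells and reach it before the testis cords form. In the mouse embryo, PRDM1, PRDM14 and TFAP2C act together to specify this lineage: they repress the somatic programme and restore a network of pluripotency factors. POU5F1, SOX2 and NANOG are the core of that network, and UTF1 and the DPPA proteins are expressed with it in pluripotent cells and early germ cells. In the male the network is switched off later in fetal life, as germ cells enter mitotic arrest.

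The libraries held between 16139487 and 44145158 counts, control replicate 1 being the shallowest, and the 10 genes had between 87 and 5734 counts each in a sample. Ppp1r3c, the deleted gene, was at 24.4, 22.1 and 22.9 CPM (counts per 1000000 counts of the library) in control replicates 1 to 3 and at 4.71, 5.37 and 5.96 CPM in cKO replicates 1 to 3. The log2 fold change of Ppp1r3c was -2.11 (SE 0.111, FDR 0.000126 by edgeR). Library cKO replicate 3 stood apart. Xist, the RNA that coats the inactive X chromosome, had 12534 counts there and between 6 and 41 in the other 5 libraries, and 8 pre-granulosa genes summed to 552 CPM there against 264 to 312 CPM elsewhere. Among these genes Fst, which encodes follistatin of the fetal ovary, was at 50.9 CPM there and at 0.37 to 2.02 CPM elsewhere, and Foxl2, a transcription factor of the ovary, was at 7.56 CPM there and at 0.43 to 1.22 CPM elsewhere. These values go against the label of a pool made of XY testes alone, and whether the pool held XX tissue was not tested. The word testes is used below as the labels give it. Medians and relative values without this library are given beside the main results. Germ cells were represented in every library: Ddx4, which encodes a germ cell RNA helicase, averaged 93.4 ± 33.8 CPM over the controls (SD, n = 3) and 49.8 ± 14.4 CPM over the cKO samples (SD, n = 3), and Dazl, which encodes a germ cell RNA-binding protein, was at 245 ± 66.1 and 133 ± 59.7 CPM (SD, n = 3 each).

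The promoters of the core network genes are shown because these genes had like profiles over the samples. RefSeq promoter windows (build GRCm38.p6, 250 bases before to 50 bases after the start site) were available for 5 of the 10 genes, Pou5f1, Sox2, Nanog, Utf1 and Prdm1, and 3 are printed here 5′ to 3′ on the coding strand, at chr17:35505782-35506081 (Pou5f1), chr3:34649745-34650044 (Sox2) and chr6:122707239-122707538 (Nanog), each on the plus strand. Capitals mark 4 searched motifs on either strand. They were the POU site ATGCAAA, a part of the octamer bound by POU factors, and the SOX site ACAATG. The others were the box GGGCGG bound by SP and KLF factors and the TFAP2 site. The TFAP2 site is GCC and GGC with any 3 bases between them.
Pou5f1: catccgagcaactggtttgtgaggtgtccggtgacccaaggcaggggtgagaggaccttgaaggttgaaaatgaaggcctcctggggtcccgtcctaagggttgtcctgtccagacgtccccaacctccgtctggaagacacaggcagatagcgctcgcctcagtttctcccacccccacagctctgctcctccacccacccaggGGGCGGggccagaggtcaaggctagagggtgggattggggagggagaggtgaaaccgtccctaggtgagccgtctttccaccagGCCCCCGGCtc
Sox2: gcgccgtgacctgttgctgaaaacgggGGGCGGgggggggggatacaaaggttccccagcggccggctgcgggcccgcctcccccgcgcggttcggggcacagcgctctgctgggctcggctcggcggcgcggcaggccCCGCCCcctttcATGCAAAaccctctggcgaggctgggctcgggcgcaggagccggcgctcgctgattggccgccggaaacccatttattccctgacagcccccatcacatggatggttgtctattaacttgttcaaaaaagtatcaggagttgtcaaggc
Nanog: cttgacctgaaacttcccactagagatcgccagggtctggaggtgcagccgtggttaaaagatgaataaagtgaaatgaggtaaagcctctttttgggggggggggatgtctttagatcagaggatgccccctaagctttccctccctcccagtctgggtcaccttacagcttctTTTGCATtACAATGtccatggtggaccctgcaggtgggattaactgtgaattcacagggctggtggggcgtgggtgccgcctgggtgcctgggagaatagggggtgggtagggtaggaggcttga
In the Nanog window a POU site on the minus strand began 75 bases before the start site. A SOX site on the plus strand began 67 bases before it, 1 base beyond the end of the POU site. The Sox2 window held a POU site 99 bases before the start and GGGCGG boxes 223 and 111 bases before it. The Pou5f1 window held a GGGCGG box 45 bases before its start and a TFAP2 site that began 39 bases after it. A second window of Nanog, not printed, held the same POU and SOX sites and a TFAP2 site 16 bases after its own start. A second window of Pou5f1 held ACAATG 158 bases before its own start. The Utf1 window held GGGCGG at 4 positions, and the other motifs were not found in it. None of the 4 motifs was found in the Prdm1 window. Across all 32851 RefSeq promoter windows, 4.63% held the POU site, 12.6% held ACAATG, 35.7% held GGGCGG and 16.6% held the TFAP2 site on either strand. The arrangement of a POU site and a SOX site 1 base apart, which was read from the Nanog window itself, occurred in 2 windows. Both were of Nanog, and as they overlap they hold the same site. These matches are a description of the letters and were not compared with the fold changes.

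The core network genes were examined to ask how far they differed between control and cKO testes. Pou5f1 (chromosome 17, 35506032 to 35510777, plus strand, mm10) encodes the POU factor at the centre of the network. It was at 68.3, 109.9 and 100.2 CPM in control replicates 1 to 3 and at 68.9, 33.6 and 53.5 CPM in cKO replicates 1 to 3. Control replicates 2 and 3 were above all cKO samples, while control replicate 1 was level with cKO replicate 1, so the groups overlapped. The mean of Pou5f1 was 43.9% lower in cKO testes, with a log2 fold change of -0.84 (SE 0.241, 95% interval -1.38 to -0.30, FDR 0.377 by edgeR), which did not pass the threshold of 0.05.

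Sox2 (chromosome 3, 34649995 to 34652461, plus strand), a single-exon gene for the HMG-box partner of POU5F1, was at 21.98, 35.9 and 34.8 CPM in control and 24.3, 10.8 and 19.9 CPM in cKO replicates. Its log2 fold change was -0.77 (SE 0.268, FDR 0.380 by edgeR). Nanog (chromosome 6, 122707489 to 122714633, plus strand), a homeobox factor of the network, was at 15.6, 29.3 and 27.1 CPM in control and 17.9, 8.20 and 14.2 CPM in cKO replicates. The log2 fold change of Nanog was -0.85 (SE 0.282, FDR 0.377 by edgeR). As for Pou5f1, control replicate 1 lay below cKO replicate 1 for both genes, and cKO replicate 2 was the lowest sample. Utf1 (chromosome 7, 139943856 to 139945112, plus strand), a chromatin-associated factor of pluripotent cells, was at 57.3, 66.5 and 78.2 CPM in control and 58.3, 31.6 and 47.3 CPM in cKO replicates. It had the smallest difference of the 10 genes, with a mean 32.1% lower and a log2 fold change of -0.56 (SE 0.194, FDR 0.380 by edgeR).

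**Figure D1:**
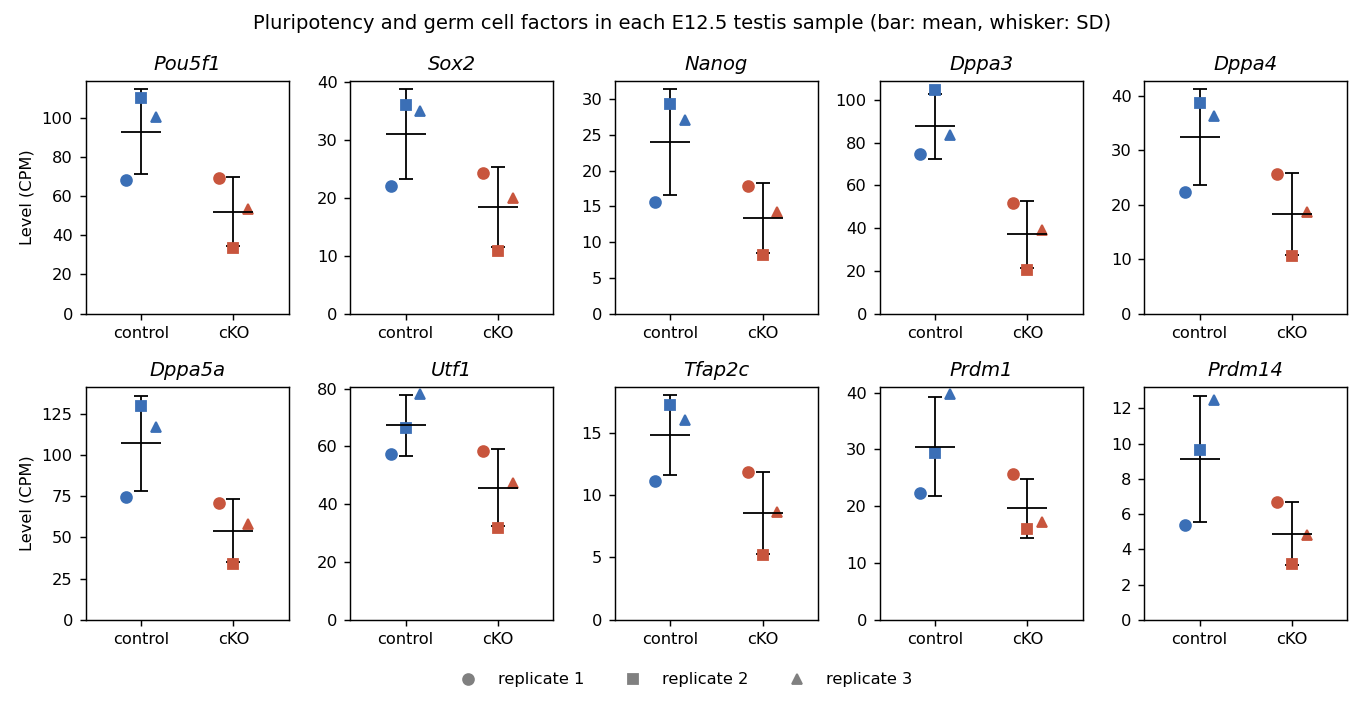
Level of each of the 10 genes in CPM (y axis, linear from 0, a separate scale per panel) in 3 control (blue) and 3 cKO (red) samples, with the mean as a bar and the SD as a whisker. Control replicate 1 (circle) was the lowest control and cKO replicate 2 (square) the lowest sample for all 10 genes, and the groups were apart only for Dppa3 and Dppa5a.

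The DPPA genes, named as developmental pluripotency-associated, were next examined. Dppa3 (chromosome 6, 122626424 to 122630271, plus strand), also known as Stella, encodes a protein that protects DNA methylation in the early embryo. It was at 74.7, 104.7 and 83.4 CPM in control replicates 1 to 3 and at 51.7, 20.4 and 39.2 CPM in cKO replicates 1 to 3. Every cKO sample was below every control sample, and the mean was 57.6% lower, the largest difference among the 10 genes. The log2 fold change of Dppa3 was -1.24 (SE 0.271, 95% interval -1.85 to -0.63, FDR 0.377 by edgeR), and an exact two-sided permutation test gave a p of 0.1, below which 3 against 3 samples cannot go.

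Dppa5a (chromosome 9, 78367052 to 78368199, minus strand), an RNA-binding protein with a KH domain, was at 74.5, 129.8 and 117 CPM in control and 70.8, 33.6 and 58.1 CPM in cKO replicates. The groups were again apart, though control replicate 1 exceeded cKO replicate 1 by little. Its log2 fold change was -0.99 (SE 0.261, FDR 0.377 by edgeR) with an exact permutation p of 0.1. Dppa4 (chromosome 16, 48283735 to 48294292, plus strand), a chromatin factor that acts with DPPA2, was at 22.4, 38.6 and 36.2 CPM in control and 25.6, 10.7 and 18.7 CPM in cKO replicates, with overlapping groups. The log2 fold change of Dppa4 was -0.84 (SE 0.285, FDR 0.380 by edgeR).

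The specification factors came last. Tfap2c (chromosome 2, 172549593 to 172558622, plus strand) was at 11.1, 17.2 and 16.1 CPM in control and 11.8, 5.23 and 8.65 CPM in cKO replicates, a log2 fold change of -0.80 (SE 0.263, FDR 0.377 by edgeR). Prdm1 (chromosome 10, 44437174 to 44458748, minus strand), also known as Blimp1, was at 22.4, 29.3 and 39.7 CPM in control and 25.6, 16.02 and 17.2 CPM in cKO replicates. Its log2 fold change was -0.65 (SE 0.218, FDR 0.377 by edgeR), the smallest after that of Utf1. Prdm14 (chromosome 1, 13113428 to 13127163, minus strand) was the least abundant of the 10 genes, at 5.36, 9.62 and 12.47 CPM in control and 6.71, 3.14 and 4.81 CPM in cKO replicates. The log2 fold change of Prdm14 was -0.93 (SE 0.321, FDR 0.380 by edgeR). In all 3 specification factors control replicate 1 was below cKO replicate 1, and the exact permutation p was 0.2.

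Of the 10 genes, 0 passed an FDR of 0.05 by edgeR, where 0.0385% of all tested genes were called and 0.00642% were called lower, and 0 passed by DESeq2, where 0.27% of genes were called lower. The FDR by DESeq2 was lowest for Tfap2c (0.069), Dppa3 (0.088) and Prdm14 (0.098), and highest for Sox2 (0.467). The fold change was below 0 for all 10, as for 50.9% of all tested genes. At an unadjusted edgeR p under 0.05, all 10 were lower, against 5.8% of all tested genes. Leaving out control replicate 2 gave a count of 6, leaving out control replicate 3 gave 4, and DESeq2 gave 8. The groups did not overlap for 2 of 10, Dppa3 and Dppa5a, whereas 7.17% of all tested genes had every cKO sample below every control sample. The median log2 fold change of the 10 genes was -0.84, beside -0.0034 over all tested genes. Their 95% intervals all lay below 0, but the genes share the same 6 samples and are not independent of each other. Without cKO replicate 3, the library with high Xist counts, the 10 fold changes lay between -1.28 for Dppa3 and -0.56 for Prdm1, each with an FDR of 0.633 by edgeR, and all 10 were at an unadjusted p under 0.05. The median was then -0.86, and it was -1.02 without control replicate 1. Leaving out cKO replicate 1 gave -1.12, leaving out cKO replicate 2 gave -0.58, and all 10 genes stayed lower in each of these fits. In whole tissue, fewer germ cells and less RNA of these genes per germ cell cannot be told apart.

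Levels were then compared between genes per kilobase of exon, using exon lengths of the GENCODE M21 annotation, which differs from the annotation used for counting. In control testes Dppa5a was highest, at 173 ± 46.7 CPM per kb (SD, n = 3), followed by Dppa3 at 105 ± 18.5, Pou5f1 at 68.1 ± 15.99 and Utf1 at 54.9 ± 8.54. Dppa4 followed at 21.9 ± 5.91, Sox2 at 15.0 ± 3.77 and Nanog at 10.7 ± 3.29. The specification factors were lowest on this scale, with Prdm1 at 5.68 ± 1.62, Tfap2c at 4.51 ± 0.982 and Prdm14 at 3.57 ± 1.396. Pou5f1 and Utf1, Prdm1 and Tfap2c, and Tfap2c and Prdm14 were separated by less than the larger SD of the pair. Neighbours held their order in 6 of 6 samples, except that Dppa3 exceeded Pou5f1 in 5 of 6 and Pou5f1 exceeded Utf1 in 5 of 6.

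Reads of some genes may be shared with copies elsewhere in the genome. Transcripts of Dppa3, Dppa4 and Dppa5a matched 1, 2 and 7 other annotated genes at an identity of 95% or more. These matches ran up to 451, 735 and 417 bases, and Pou5f1 matched 1 gene over 171 bases. Nanog matched 57 annotated genes over at most 245 bases. Of the matched genes, 2 for Dppa5a and 39 for Nanog were themselves in the count table. No such match as long as a read was found for Sox2, Utf1, Tfap2c, Prdm1 or Prdm14. Sox2 lies within Sox2ot on the same strand. Counts of the genes with such matches are uncertain to that extent in both groups.

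To ask whether the 10 genes were lower evenly, each was set against the mean log2 level of the other 9 in the same sample. This cancels a common shift. By construction the 10 differences cancel out, so a low value of any gene raises those of the others. For Pou5f1 the groups differed by 0.00024 on the log2 scale (SD 0.081 in control and 0.026 in cKO, n = 3 each), for Dppa4 by -0.0046, for Nanog by 0.014, for Prdm14 by -0.015, for Tfap2c by 0.032 and for Sox2 by 0.073. These 6 differences were within the spread between samples. Pou5f1 was between 18.3% and 19.4% of the summed counts of the 10 genes in every sample.

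Dppa3 had the largest difference from the other genes. Relative to them and to its control mean, it was at 0.24, 0.066 and -0.31 in control replicates 1 to 3 and at -0.41, -0.70 and -0.42 in cKO replicates 1 to 3, a difference of -0.51 with no overlap (exact permutation p 0.1, 10 such comparisons made). Its share of the summed counts was 20.003%, 18.3% and 15.3% in control and 14.3%, 11.8% and 13.9% in cKO replicates. Dppa5a was also lower than the others without overlap, by a difference of -0.16 (exact permutation p 0.1). The margin was narrow, its lowest control being at -0.060 and its highest cKO sample at -0.084. The share of all tested genes that would lie apart in such a comparison was not computed. Utf1 was higher relative to the others, which include Dppa3 and Dppa5a, by a difference of 0.31 (exact permutation p 0.2). Prdm1 was higher by 0.27 (exact permutation p 0.5). Without cKO replicate 3 the differences were -0.56 for Dppa3, -0.20 for Dppa5a, 0.31 for Utf1 and 0.41 for Prdm1. For Prdm1 the single value of 0.63 in cKO replicate 2 stood above all other samples, at -0.25 to 0.22. Dppa3 and Nanog lie 77.2 kb apart on chromosome 6, on the same strand. The ratio of Dppa3 to Nanog in CPM was 4.80, 3.57 and 3.08 in control and 2.89, 2.49 and 2.76 in cKO replicates (exact permutation p 0.1).

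**Figure D2:**
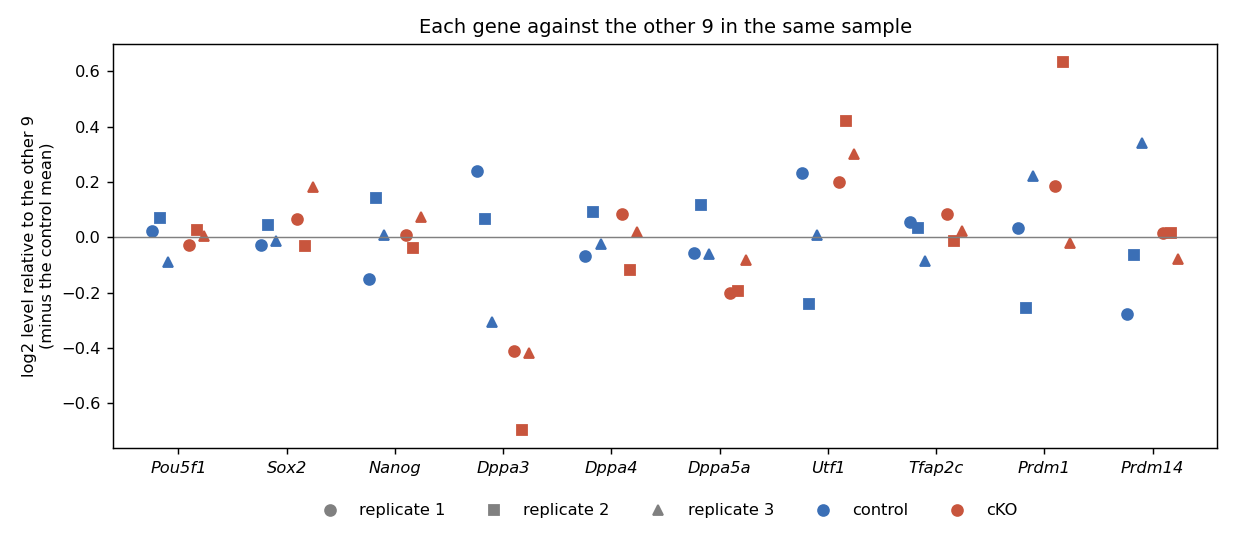
Log2 level of each gene minus the mean log2 level of the other 9 in the same sample, shifted so that the control mean is 0 (y axis), in control (blue) and cKO (red) replicates. Pou5f1, Nanog, Dppa4 and Tfap2c were mixed between groups around 0, whereas the cKO samples of Dppa3 were between -0.70 and -0.41, below every control sample.

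The 10 genes were next set against germ cell RNA as a whole. The reference was the summed count of 13 other germ cell genes, among them Ddx4 and Dazl, which ranged from 362 to 644 CPM in control and from 193 to 409 CPM in cKO samples. In this scaling a fold change of 0 means that a gene was lower by the same proportion as the reference. The median log2 fold change of the 10 genes was -0.045, while the median over all tested genes moved to 0.85. Tfap2c (-0.024), Nanog (-0.039), Pou5f1 (-0.050), Dppa4 (-0.052), Prdm14 (-0.077) and Sox2 (0.020) lay near 0. Dppa3 was at -0.52 (95% interval -1.43 to 0.38, FDR 0.280 by edgeR), Dppa5a at -0.19, Utf1 at 0.22 and Prdm1 at 0.21. With the geometric mean of the reference genes, which weighs each alike, the median of the 10 genes was -0.21.

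By edgeR 0 of 10 genes were called relative to the reference, at an unadjusted p under 0.05 also 0 (29% of all tested genes), and 0 by DESeq2. In the same fit 0.437% of all tested genes were called. The SE was between 0.458 and 0.471 for every one of the 10 genes, the spread in this fit being estimated jointly over all tested genes. Ppp1r3c itself, at -1.27 in this fit, had an FDR of 0.143 by edgeR and was not called. A smaller departure of any of the 10 genes could therefore not be called, and 0 calls do not show evenness. The 29% and 0.437% came with the shift of all tested genes to a median of 0.85, and are no measure for germ cell genes. Per 1000 reference counts, Dppa3 had 207, 184 and 129.6 counts in control and 126, 106 and 129.1 counts in cKO replicates, so the groups were apart by a narrow margin (exact permutation p 0.1). With this scaling 0.103% of all tested genes had every cKO sample below every control sample, and 16.1% had every cKO sample above. As most tested genes moved up in this scaling, the 0.103% does not tell how rare such a gap is among germ cell genes. The log2 fold change of Dppa3 relative to the reference was -0.58 without cKO replicate 3, and it lay between -0.70 and -0.38 in all 13 settings run.

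**Figure D3:**
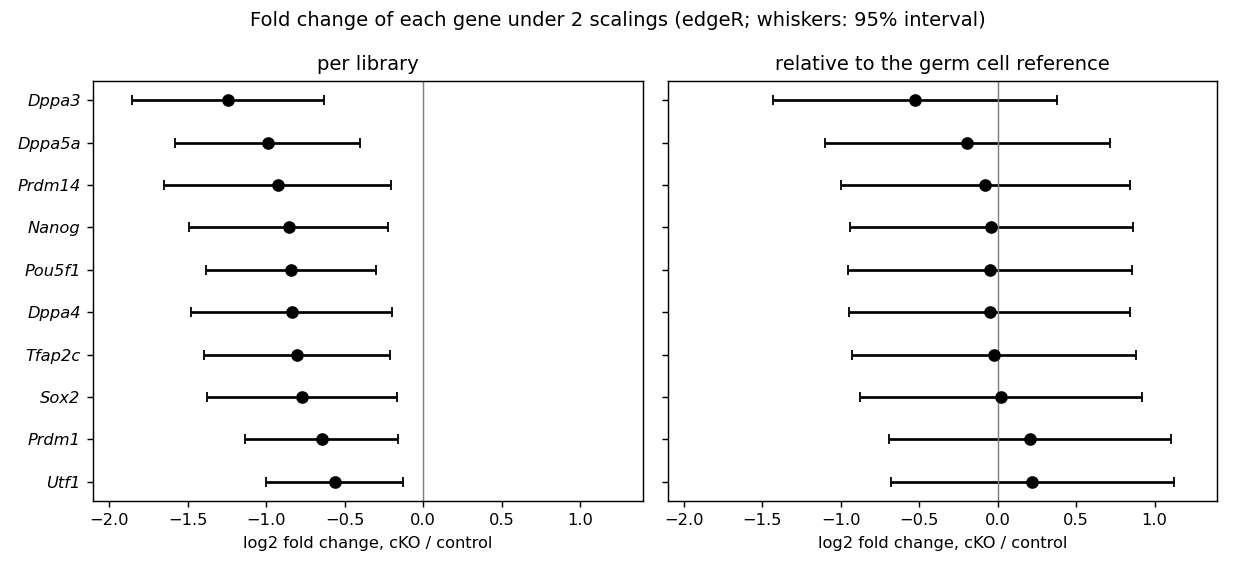
Log2 fold change of cKO over control for each gene with its 95% interval (edgeR), scaled on the library (left) and on the summed count of the germ cell reference genes (right). On the left all 10 intervals are below 0, and on the right all 10 hold 0, with Dppa3 lowest at -0.52. The SE on the right was between 0.458 and 0.471, from a spread estimated jointly over all tested genes. An interval that holds 0 therefore does not show evenness.

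Other genes of the pluripotency network were described in the same way. Of 25 listed partners 24 were tested, and 20 were lower and 4 higher in cKO testes, with a median log2 fold change of -0.67. edgeR called 0 of them, and 13 were lower and 2 higher at an unadjusted p under 0.05, with 5.8% of all tested genes lower. The median was -0.70 without cKO replicate 3, with 11 lower at that p. Lin28a, an RNA-binding protein that blocks let-7 maturation, had a log2 fold change of -0.80 (SE 0.222, FDR 0.377 by edgeR), and Tdgf1, the Nodal co-receptor, had -1.04 (SE 0.302, FDR 0.377 by edgeR). Stat3, which transmits cytokine signals and is widely expressed, was at 53.0 ± 1.78 CPM in control and 61.5 ± 1.88 CPM in cKO samples (SD, n = 3 each), with a log2 fold change of 0.22 (SE 0.0606, FDR 0.377 by edgeR).

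Genes of germ cell specification and migration had a median of 0.038, with 8 of 18 tested genes lower. At an unadjusted p under 0.05, 5 were lower and 1 higher, beside 5.8% of all tested genes lower. Without cKO replicate 3 the median was -0.077, with 11 of 19 tested genes lower and 3 of them at that p. Among them Elavl2, a neuronal-type RNA-binding protein also found in germ cells, had a log2 fold change of -0.90 (SE 0.276, FDR 0.377 by edgeR). Alpl, the alkaline phosphatase long used to stain primordial germ cells, had -0.29 (SE 0.0849, FDR 0.377 by edgeR), and Smad5, a mediator of BMP signals that many cell types express, had 0.16 (SE 0.0568, FDR 0.381 by edgeR). In this list edgeR also called 0 genes.

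Among paralogs of the 10 genes 17 of 24 were tested, with a median of -0.047 and 0 calls by edgeR. At an unadjusted p under 0.05, 4 were lower and 0 higher, beside 5.8% of all tested genes lower. The median was -0.053 without cKO replicate 3, with 3 lower at that p. Dppa2, the partner of Dppa4 and also in the list of network partners, had a log2 fold change of -0.81 (SE 0.284, FDR 0.380 by edgeR), close to the -0.84 of Dppa4. Sox15 had -0.67 (SE 0.208, FDR 0.377 by edgeR), and Pou2f3, at only 1.92 CPM in control, had -1.14 (SE 0.342, FDR 0.377 by edgeR). Tfap2d had 0 counts in all 6 libraries.

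Genes of male germ cell differentiation, a list that also held meiotic genes, had a median of -0.69. Of 9 tested genes 7 were lower, and edgeR called 0. At an unadjusted p under 0.05, 5 were lower, beside 5.8% of all tested genes. Without cKO replicate 3 the median was -0.77, with 9 of 9 lower and again 5 at that p. Nodal and its targets Lefty1 and Lefty2, which are active in male germ cells at this stage, had log2 fold changes of -0.95 (SE 0.279), -0.96 (SE 0.327) and -0.94 (SE 0.248), with an FDR of 0.377 to 0.380 by edgeR. Nanos2, Dnmt3l and Stra8 of this list had too few counts to be tested, with 35, 8 and 10 counts over all 6 libraries.

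**Figure D4:**
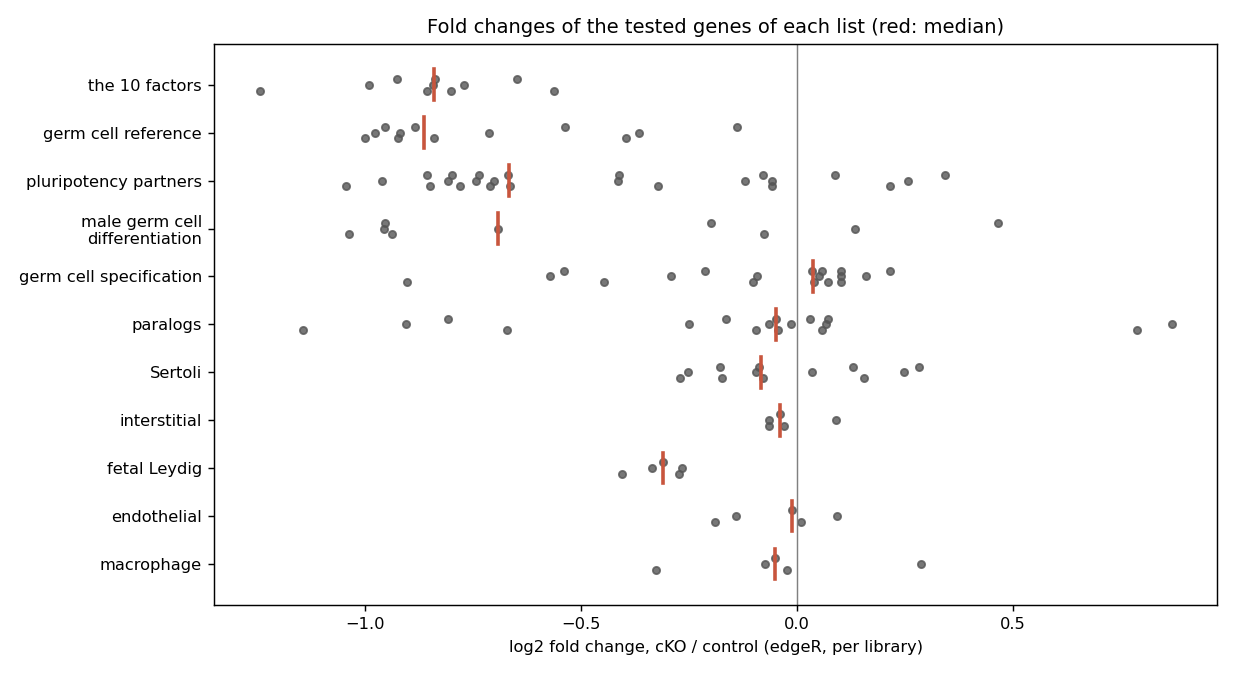
Log2 fold change of cKO over control (x axis) for each tested gene (grey) of the lists named on the y axis, with the list median in red. The 10 factors and the germ cell reference have medians of -0.84 and -0.86, and the network partners -0.67. The medians of the Sertoli, interstitial, endothelial and macrophage lists lie within 0.1 of 0, and that of the fetal Leydig list is -0.31.

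Somatic lists were set beside these values. The median log2 fold change was -0.082 for Sertoli genes, -0.050 for macrophage genes, -0.039 for interstitial genes, -0.011 for endothelial genes, 0.064 for neural crest genes and 0.071 for erythroid genes. It was -0.31 for fetal Leydig, 0.52 for mesonephros and 0.79 for pre-granulosa genes. In cKO replicate 2, where all 10 factors were lowest, the Sertoli list summed to 2254 CPM and Amh was its most abundant gene, against 1671 to 2228 CPM in the other libraries. The pre-granulosa sum was 308, 299.7 and 264 CPM in control and 312, 310.3 and 552 CPM in cKO replicates, so every cKO sum was above every control sum, by little in cKO replicates 1 and 2. Without cKO replicate 3 the median was 0.30 for pre-granulosa, -0.045 for fetal Leydig, 0.32 for mesonephros, 0.13 for neural crest and 0.038 for Sertoli genes, and it lay between -0.044 and 0.029 for the other somatic lists. The part of pre-granulosa RNA in the levels of the 10 genes was not tested. The neural crest list, examined because Sox2 marks neural progenitors, summed to 42.0 to 52.5 CPM and was carried by Sox10, while Foxd3 had 3 counts over all libraries. The macrophage list, examined because Prdm1 is also expressed in blood cells, summed to 31.6 to 34.8 CPM in the 6 libraries.

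Finally, the genes whose profile over the 6 samples was most like the mean profile of the 10 were sought among genes outside all lists. Likeness was the root mean square difference of centred log2 CPM, for which a smaller value means a closer profile. The 5 closest were Zyg11a (0.037), Epcam (0.063), Esrp1 (0.064), Gstm3 (0.065) and Uba1y (0.072), with log2 fold changes of -0.82, -0.84, -0.83, -0.77 and -0.84. Fold changes close to those of the 10 genes follow from this choice and are no separate result. Of the 10 genes themselves, which enter the mean profile, Pou5f1 (0.044) and Tfap2c (0.049) ranked 2 and 3 among 15577 tested genes, while Prdm1 (0.24) ranked 198 and Dppa3 (0.28) ranked 268.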

How the data were processed

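RNA of E12.5 testes was sequenced by the authors as stranded mRNA libraries in 6 samples. Read pairs were mapped to mm10 with STAR (version 2.5 per the labels) and counted per RefSeq Curated gene with strand by featureCounts (Subread 1.5.0-p1). The deposited values were raw counts, and the table held coordinates in mm10 (GRCm38), which are given above.

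Groups and replicate numbers came from the sample titles. The test was edgeR (version 4.0.16, R 4.3.3): filterByExpr with a minimum count of 10, TMM, a quasi-likelihood test between cKO and control, Benjamini-Hochberg over all 15577 genes. CPM used TMM-scaled library sizes, and log2 CPM a prior count of 2. Scaling on the germ cell reference replaced library sizes with the summed counts of 13 genes, 1 listed gene being unmatched, and 12 of the 13 passed the filter. Ratios per reference count used a pseudocount of 0.5. Alternatives were limma-voom (version 3.58.1) and DESeq2 (version 1.42.0), the tool of the authors, other size factors and count filters, a replicate block, other germ cell references and leaving out each sample. Values of lists, and of the 10 genes against each other, without cKO replicate 3 were added after seeing the data. Near copies were sought with blastn (version 2.17.0).

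The 10 genes and all lists were chosen with earlier results of these data known. Named genes were the 10, Ppp1r3c, Xist, Ddx4, Dazl, the 3 of lowest edgeR p per network list, the 5 of closest profile and the most abundant marker of a somatic list; Tfap2d, Nanos2, Dnmt3l, Stra8, Foxd3, Fst, Foxl2 and Sox2ot were chosen after their values were seen. On simulated counts of cKO against control with 15441 genes, the test recovered 86% of genes changed by 1 on the log2 scale, and 7.92% of its calls were false. The changed genes were drawn at random from expressed genes. The median SE was 0.095 over all tested genes and 0.266 for the 10, so the 86% does not describe the 10 genes. With the germ cell reference scaling it recovered 87% of such genes, and 12.6% of its calls were false. The simulated samples held no shared difference in germ cell RNA, unlike the real ones. The 87% therefore does not carry over to the 10 genes in that scaling. Samples are separate pools. On the library scaling and in the permutation tests, p-values rest on the spread between them. In the germ cell reference scaling the spread was estimated jointly over all tested genes. Those edgeR p-values and intervals therefore do not measure the spread of a single gene.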

Additional observations from a re-analysis of the deposited data

How the results depend on the processing

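The 10 genes stayed lower in cKO testes in all 13 settings run on the library scaling, and 0 of them were called in any. The number of called genes among all genes was 6 by edgeR, 111 by DESeq2 and 3 with the replicate number as a block, and 2 to 8 when single samples were left out. The block left the median of the 10 genes at -0.87 and 0 of them called. Same-numbered samples deviated with correlations of -0.20, -0.27 and -0.13, and the replicate numbers were not taken as pairs.

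Relative to the germ cell reference 0 of the 10 were called in any of 13 settings, but the sign of values near 0 depended on the reference. Their median was 0.058 with Ddx4 and Dazl alone and -0.21 with the geometric mean of the reference genes, in which Sox2 was at -0.15. With Ddx4 and Dazl alone Pou5f1 was at 0.052, Nanog at 0.063, Dppa4 at 0.048, Tfap2c at 0.076 and Prdm14 at 0.028. With the reference level as a covariate, a setting chosen after seeing the data, Nanog was at 0.023, Dppa4 at 0.037, Prdm14 at 0.078, Utf1 at -0.0066 and Prdm1 at -0.029. When single samples were left out, Pou5f1 was at -0.14 to 0.0076, Sox2 at -0.043 to 0.072, Nanog at -0.094 to 0.059, Dppa4 at -0.12 to 0.019, Tfap2c at -0.12 to 0.030 and Prdm14 at -0.17 to 0.026. The number of genes called among all genes in this scaling was 68 by edgeR, 12 by DESeq2, 1 with the block, 2 with the covariate and 16 to 154 when single samples were left out. The cause of these changes was not tested. No direction is read for these genes. Depth limits Prdm14 most, with 87 counts in control replicate 1.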
